A study of Homo sapiens with 38 samples.

Results

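A549 cells, a human lung adenocarcinoma line with epithelial morphology that serves as a model of the alveolar epithelium, were exposed for 24 h to 3.0 µg/cm2 of fumed amorphous silica nanoparticles (SiO2NPs) in serum-free medium and were compared with control cells kept in serum-free medium alone for the same 24 h. Gene expression was measured on single-dye Agilent whole human genome arrays, and the 6 arrays described here were taken from the 38 of the series by dose, time and slide. Each of 3 slides carried 1 control and 1 exposed culture, so that 3 separate cultures stood on each side. The control was always at array position 1 and the exposed culture at position 2, and position and exposure cannot be told apart. All groups were the same established line with no transgene, deletion or further agent, and a tumour line grown without other lung cells is limited as a model of the alveolus. Cells exposed to 6.0 µg/cm2 for 24 h (3 arrays on the same slides) and cells exposed to 3.0 µg/cm2 for 72 h (3 arrays on other slides) with their 72 h controls (3 arrays on the same slides) served for direct comparisons.

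Silica particles that settle on epithelial cells are taken into endosomes and lysosomes, and stressed epithelium can release cytokines under the control of NF-kB, AP-1 and the MAP kinases. Unfolded proteins, amino acid shortage and oxidants each switch on their own sets of genes, through heat shock factor, the integrated stress response with ATF4 and CHOP, and NRF2. A549 cells also transcribe many genes best known from the liver and the gut, among them fibrinogen, complement regulators and parts of the brush border, whose promoters are read by HNF1, HNF4, FOXA and C/EBP factors. Fibrinogen is cut to fibrin by thrombin at the end of the clotting cascade, and plasmin, activated by the plasminogen activators PLAU and PLAT, dissolves fibrin again.

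The 75th percentile of the processed signal was 991 to 1313 on the 6 arrays, 64.1% to 67.3% of the probes were well above background, and no spot was saturated. Levels are given as relative signal, with the 75th percentile of each array set to 100. A single relative signal was compared between arrays for the same probe and not between probes. Summed levels of marker lists add different probes, so that the brightest weigh most. Of 10 epithelial markers 9 were well above background on all 6 arrays. Of 14 alveolar type II markers 10 were, whereas SFTPA1, SFTPB, SLC34A2 and NKX2-1 were well above background on none. The labelled epithelial origin was thus borne out by the general epithelial markers and only in part by those of type II cells. Of the 10 markers of alveolar type I cells 9 were detected and PDPN was not. Markers of endothelial cells and fibroblasts were mostly not well above background, with 5 of 8 at background on every array in either list, and none of the 2 tested in each was modulated. None of the 10 type II and 9 type I markers tested was modulated either, although the summed level of the type II list was 349.5 to 359 in the controls and 372 to 391 in the exposed cells. ABCA3, the brightest of that list, was at 158 to 166 in the controls and 181 to 187 in the exposed cells. SFTPC went the other way, at 6.16 to 6.56 in the controls and 4.21 to 5.10 in the exposed cells. Of the 10 type II markers tested 7 had a positive log2 fold change (median 0.050). By an adjusted p under 0.05 alone in limma none of them was higher and 1 was lower.

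In A549 cells exposed to 3.0 µg/cm2 SiO2NPs, IL6, MMP1 and the heat shock gene HSPA6 were among the genes that rose against control cells, and CFI, VIL1 and the fibrinogen genes FGB and FGG among those that fell. Of 22 liver-type plasma protein genes tested 8 fell and 4 rose, and of 18 mucin and brush-border genes 5 fell and 2 rose. The share that changed by the criteria below was 54.5% and 38.9%, against 3.34% of all genes tested. IL6 rose from a relative signal of 2.92, 3.37 and 4.02 in the 3 controls to 13.8, 14.3 and 15.1 in the exposed cells. CFI, the protease that inactivates complement C3b, fell from 4.51, 4.38 and 4.11 to 0.838, 0.737 and 0.768. A transcript (1 probe) was called modulated when its adjusted p in limma was under 0.05 and it differed 1.5-fold or more, and 636 of the 22091 transcripts tested met this (2.88%), 330 higher (1.49%) and 306 lower (1.39%). Most changes were of moderate size, as the median log2 fold change was 0.80 among the transcripts that rose and −0.78 among those that fell. A change of at least 2-fold was reached by 104 higher and 76 lower transcripts, and a change of at least 4-fold by 13 and 7. Each of the 636 moved in the same direction on all 3 slides without overlap between the groups, a separation also seen in 35.6% of all transcripts tested. Where it is mentioned for single modulated genes below, the separation thus adds nothing to their call. Of the 636, 531 were well above background on all 6 arrays (83.5%, against 96.1% of all transcripts tested), 25 were not well above background in any control and 21 not in any exposed culture. In bulk RNA, fewer cells of a kind and less RNA per cell cannot be told apart.

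**Figure D1:**
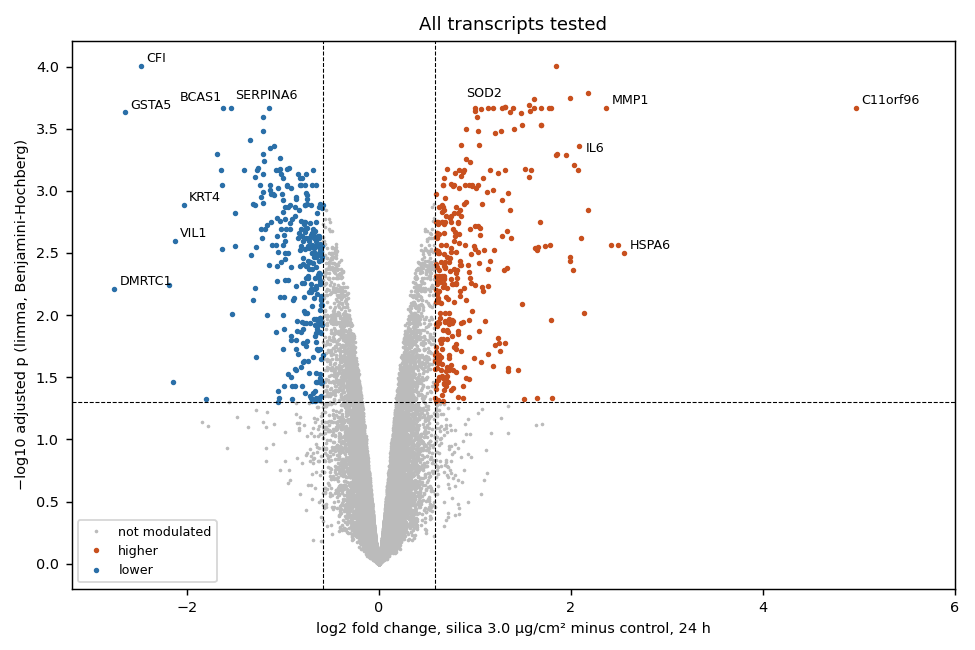
Log2 fold change at 3.0 µg/cm2 against control cells (x axis) and −log10 of the limma adjusted p (y axis) for the 22091 transcripts tested, 1 point each. Dashed lines mark a fold change of 1.5 and an adjusted p of 0.05, modulated transcripts are coloured (330 higher, 306 lower), and C11orf96 lies apart from all others at a log2 fold change of 4.97.

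With 1 probe per gene, 478 of the 14312 genes tested were modulated (3.34%), 244 higher (1.7%) and 234 lower (1.63%), and the median log2 fold change over all genes was −0.015. Without the fold threshold, an adjusted p under 0.05 alone was met by 2007 genes (14%), of which 903 were higher (6.31%) and 1104 lower (7.71%). These percentages are the reference for every count of a gene group below, also where they are not repeated. Members and lists were chosen with earlier results of these data known, so a share above these percentages is a description and no independent evidence. The gene groups together held 988 genes, of which 788 were tested, and 63 of these rose and 45 fell. Of the 181 further list genes with a probe, 145 were not well above background on any of the 6 arrays and 36 on some only, and they were not tested.

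C11orf96, whose product is little characterised, rose more than any other named transcript. Its relative signal was 1.51, 0.886 and 1.16 in the controls, where 1 of 3 arrays had it well above background, and 41.7, 31.2 and 36.6 in the exposed cells (log2 fold change 4.97 ± 0.20 SE, 3 arrays per group, limma adjusted p = 0.000215). The lowest exposed culture lay more than an order of magnitude above the highest control. HSPA6, a strictly stress-inducible member of the HSP70 family, went from 1.25, 2.37 and 2.55 to 10.9, 10.5 and 13.4 (2.56 ± 0.27, adjusted p = 0.00315). Control 1 was the lowest of all arrays, and the groups were apart by a wide margin. MMP1, the collagenase that opens fibrillar collagen, went from 2.72, 2.62 and 2.08 to 12.4, 13 and 12.6 (2.37 ± 0.11, adjusted p = 0.000215), with 3 nearly equal exposed cultures. IL6 rose by 2.08 ± 0.12 (adjusted p = 0.000439), and PTPRR, a receptor-type phosphatase of MAP kinases, went from 1.76, 1.29 and 0.970 to 5.40, 5.31 and 6.15 (2.11 ± 0.21, adjusted p = 0.00242). LRRC2 and TTC9B, named for leucine-rich and tetratricopeptide repeats, rose by the same log2 fold change of 2.18 each, LRRC2 from 2.26 to 3.31 up to 10.6 to 15.2 and TTC9B from 1.21 to 1.34 up to 5.37 to 6.09.

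The other 5 of the 12 transcripts with the largest rises were not well above background in any control culture, and their fold is a lower bound against the lowest signal that was. Such bounds, here and below, hold for the processed signal only. With the local background modelled by normexp, the log2 fold change of HCAR3 was 0.46. HCAR3, a hydroxycarboxylic acid receptor, rose at least 3.05-fold, from 0.807, 0.662 and 0.624 to 2.77, 3.25 and 2.58. DHRS9, a retinol dehydrogenase, rose at least 2.37-fold, the matrix protein gene ECM2 at least 1.95-fold and CD22, a sialic acid-binding receptor of B cells, at least 1.59-fold. IL24, a cytokine of the IL-10 family, rose at least 1.45-fold, from 0.205, 0.262 and 0.497 to 1.21, 1.58 and 1.2. That the groups did not overlap was a condition for choosing these transcripts, and these 5 passed the detection filter through the exposed cultures alone. Their exposed levels were 3.25 or below, so that the changes lay among dim probes. HCAR3 and HCAR2 are close copies, and whether the probe also binds HCAR2 was not tested.

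Among the 12 transcripts that fell most, CFI fell at least 4.78-fold, since it was not well above background in any exposed culture (log2 fold change −2.47 ± 0.068 SE, limma adjusted p = 9.8e-05). DMRTC1 fell at least 3.36-fold, from 3.31, 3.01 and 2.89 to 0.277, 0.414 and 0.817, and GSTA5, a glutathione transferase, at least 1.60-fold, from 1.31, 1.72 and 1.35 to 0.237, 0.253 and 0.209. GSTA5 has close copies among the alpha-class transferases, and its probe's specificity was not tested. VIL1, which bundles actin in microvilli, fell from 8.38, 9.07 and 10.2 to 1.54, 2.78 and 2.19 (−2.12 ± 0.21, adjusted p = 0.00252). KRT4, a keratin of stratified epithelium, fell from 81.9, 70.1 and 70.7 to 15, 17.1 and 23.2 (−2.03 ± 0.16, adjusted p = 0.0013). The exposed cultures of VIL1 and KRT4 lay far under all controls. LGALS2, a galactose-binding lectin, fell from 183, 170.2 and 155 to 47.1, 59.7 and 56.3 (−1.64 ± 0.11, adjusted p = 0.000676), and BCAS1 from 52.9, 52.0 and 50.6 to 15.2, 17.5 and 17.7 (−1.63 ± 0.072, adjusted p = 0.000215). C9orf152 fell from 18.7 to 20.4 down to 5.24 to 6.91, LOC283587 by 1.69 on the log2 scale, and ANKS4B, a partner of the brush border protein harmonin, by 1.63. HBB, the beta chain of haemoglobin, and NEB, the muscle protein nebulin, fell by 2.19 and 2.15 and were well above background on 1 of 3 exposed arrays each. NEB lost its call without control 1, 2 or 3 (adjusted p = 0.0844, 0.0914 and 0.0809) or exposed culture 2 (adjusted p = 0.0962). Its log2 fold change was −2.22 to −2.05 in those fits.

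**Figure D2:**
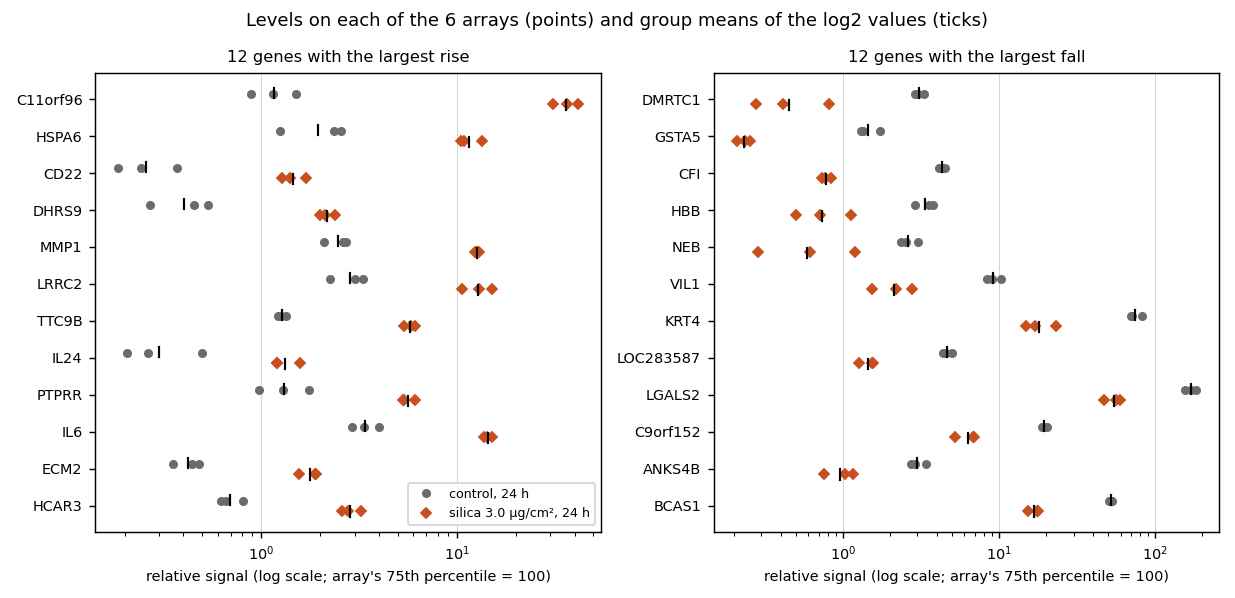
Relative signal on each of the 6 arrays (log axis, 75th percentile of the array set to 100) for the 12 transcripts with the largest rises and the 12 with the largest falls, with controls and exposed cultures in different colours and the mean of the log2 values as a tick. The 3 exposed cultures of C11orf96 lie between 31.2 and 41.7 and its controls between 0.886 and 1.51. No transcript shows overlap, which was a condition for choosing them.

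Of these 24 transcripts, 12 kept their call when the local background was modelled by normexp, namely C11orf96, HSPA6, IL6, LRRC2, MMP1, PTPRR and TTC9B among those that rose and BCAS1, C9orf152, KRT4, LGALS2 and VIL1 among those that fell. The other 12 were dim and did not reach the fold or the adjusted p there, CFI for example at a log2 fold change of −0.52 and HCAR3 at 0.46. With the series matrix values, from which no background was subtracted, 11 of the 24 lost their call, CFI among them at −0.65 with an adjusted p of 0.0619. The log2 fold changes of those that kept their call were also smaller there, 2.40 instead of 4.97 for C11orf96, 1.06 instead of 2.56 for HSPA6, 1.17 instead of 2.37 for MMP1, 1.19 instead of 2.08 for IL6 and −0.64 instead of −2.12 for VIL1 with normexp, and 2.45, 1.1, 1.16, 1.2 and −0.79 with the series matrix values. LGALS2, at −1.64, and KRT4, at −2.03, changed least, to −1.45 and −1.80 with normexp. The size of the largest folds thus depended on the background, whereas their sign was the same for all 24 under both.

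Promoter sequences are shown for 8 modulated genes in whose RefSeq promoter window (GRCh38.p14, 250 bases before to 50 after the annotated start) a fixed motif was found. Capitals mark the matched letters, 30 bases stand on each side where the window allows, and both strands were searched. The kappaB core GGNNTTTCC occurred in 6.18% of the 27305 promoters of the table. TTC9B (chr19:40218356-40218541, minus strand) held it at 127 and 10 bases before the start and IL6 (chr7:22727098-22727166, plus strand) at 72 bases before it.
TTC9B: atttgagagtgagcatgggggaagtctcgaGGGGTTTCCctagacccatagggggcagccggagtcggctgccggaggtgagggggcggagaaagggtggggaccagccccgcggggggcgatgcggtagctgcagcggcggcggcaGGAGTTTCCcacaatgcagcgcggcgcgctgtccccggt
IL6: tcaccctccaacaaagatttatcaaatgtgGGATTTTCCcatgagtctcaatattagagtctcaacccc
The AP-1 motif TGANTCA occurred in 7.91% of promoters and the antioxidant response element core TGACNNNGC, which can overlap it, in 13.5%. HSPA6 (chr1:161524290-161524437, plus strand) held AP-1 at 244 and 139 bases before the start, the nearer one overlapped by an antioxidant core, and LRRC2 (chr3:46566362-46566430, minus strand) held both at 96 and 98 bases before it.
HSPA6: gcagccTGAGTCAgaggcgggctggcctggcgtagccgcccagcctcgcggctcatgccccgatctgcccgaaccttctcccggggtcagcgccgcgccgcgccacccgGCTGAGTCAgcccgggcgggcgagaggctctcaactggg
LRRC2: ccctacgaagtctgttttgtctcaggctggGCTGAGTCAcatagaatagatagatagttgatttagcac
The HNF1 arm GTTAATNAT occurred in 0.798% of promoters. It is shown for C4BPA (chr1:207104153-207104221, plus strand) and FGA (chr4:154590759-154590827, minus strand), at 50 and 55 bases before the start.
C4BPA: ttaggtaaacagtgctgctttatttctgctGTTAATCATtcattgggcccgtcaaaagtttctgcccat
FGA: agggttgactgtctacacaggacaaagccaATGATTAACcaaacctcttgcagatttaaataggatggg
The HNF4 repeat CAAAGTCCA, found in 0.374% of promoters, lay in MYO1A (chr12:57050121-57050189, minus strand) at 30 bases before the start and in CD68 (chr17:7579622-7579687, plus strand) at 15 bases after it. MYO1A was lower and CD68 higher in exposed cells.
MYO1A: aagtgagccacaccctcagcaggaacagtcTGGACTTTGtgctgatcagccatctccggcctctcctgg
CD68: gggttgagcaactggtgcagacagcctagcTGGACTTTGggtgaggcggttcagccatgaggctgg
A match describes letters only and shows no binding. Windows were at hand for 70.9% of the genes that rose and 73.5% of those that fell, too few to compare motif shares between the groups.

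Of 31 secreted cytokines and growth factors tested, 7 rose and none fell, and the list's median log2 fold change was 0.23 against −0.015 over all genes. Beside IL6 and IL24 these were IL23A, a subunit of IL-23, IL11, a cytokine of the IL-6 family, the EGF receptor ligands HBEGF and EREG, and BMP2. IL23A went from a relative signal of 10.1, 11.8 and 13.2 to 22.9, 24.2 and 22.3 (log2 fold change 0.99 ± 0.10 SE). IL11 went from 362, 337 and 366 to 659, 614 and 651 (0.85 ± 0.057), with the groups well apart. EREG stood at 129 to 138 in the controls and 212 to 241 in the exposed cells and HBEGF at 6.16 to 8.13 and 11.5 to 13.2. BMP2 (log2 fold change 0.80) was past the threshold with all arrays only just, with an adjusted p of 0.0647, 0.0656, 0.0617 and 0.073 without control 2 or exposed culture 1, 2 or 3, at log2 fold changes of 0.80, 0.82, 0.82 and 0.77, and of 0.0517 with the slide as a block. By adjusted p alone, whatever the fold and with the modulated members counted, 12 members were higher and 2 lower, BMP4 and PDGFA.

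Of 13 chemokines tested 1 rose, CCL20, the ligand of CCR6, from 3.78, 3.98 and 3.91 to 6.40, 7.49 and 7.13 (log2 fold change 0.85 ± 0.070 SE, limma adjusted p = 0.00142). CXCL8, a neutrophil attractant, had a log2 fold change of 0.63 with an adjusted p of 0.0812 (modulated, at 0.81, without control 3), and the median of the list was 0.15. CCL5 was not tested, as it was well above background in 0 of 3 controls and 2 of 3 exposed cultures, with relative signals of 0.414, 0.311 and 0.459 against 2.28, 1.38 and 1.74. TNF did so on a single array, an exposed one.

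Of 23 NF-kB subunits and feedback genes 5 rose and none fell, with a median of 0.25. RELB, the subunit of the non-canonical pathway, went from 612, 622 and 575 to 1176, 1206 and 1112 (log2 fold change 0.95 ± 0.057 SE, limma adjusted p = 0.000587). BIRC3, a ubiquitin ligase of that pathway, went from 129 to 139.9 up to 214 to 240.1. TNFAIP3, the deubiquitinase A20, stood at 6.27, 6.23 and 7.95 against 10.8, 10.3 and 12.4, and the adaptor TRAF1 and the inhibitor NFKBID rose by 0.86 and 0.69. By adjusted p alone 10 of 23 were higher, NFKBIA at 0.31 among them, and none lower. Over all genes 6.31% were higher and 7.71% lower by that measure. NFKB1 and RELA were at −0.013 and 0.12 and were not modulated. Some of these calls were lost when an array was left out. TRAF1 lost its call without control 1 (0.88, adjusted p = 0.0524) or exposed culture 1, 2 or 3 (0.80, 0.88 and 0.89, adjusted p = 0.0759, 0.0616 and 0.0617), TNFAIP3 without control 2 (0.66, adjusted p = 0.054) or exposed culture 1 (0.74, adjusted p = 0.0527), and NFKBID without control 2 (0.58, under the fold threshold).

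Of 26 adhesion molecules, inflammatory receptors and TREM1 signalling genes, 4 rose and 1 fell, with a median of 0.065. ICAM1, the ligand of leukocyte integrins, went from 2.62, 2.73 and 2.64 to 5.56, 5.24 and 6.25 (log2 fold change 1.09 ± 0.074 SE), and IRAK2, a kinase below Toll-like and IL-1 receptors, from 86.1, 81.0 and 81.4 to 173, 175 and 173 (1.07 ± 0.049). Exposed cultures and controls of both genes were far apart, and the 3 exposed values of IRAK2 were nearly equal. SOCS2, an inhibitor of cytokine signalling, rose by 0.68. TNFRSF9 rose 2.40-fold with no control well above background, and its log2 fold change was 0.29 with normexp. The call was lost without control 2 (log2 fold change 1.29, adjusted p = 0.0636) or exposed culture 1, 2 or 3 (1.32, 1.24 and 1.22, adjusted p = 0.0615, 0.0684 and 0.076). TLR1 fell from 4.66, 5.04 and 4.96 to 2.78, 2.90 and 2.65 (−0.82). TREM1 itself was not tested, being well above background in 0 of 3 controls and 2 of 3 exposed cultures.

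Of 20 clotting factors, fibrinogen chains and natural anticoagulants tested, 7 fell and 1 rose, a share of 40% modulated with a median log2 fold change of −0.25. Genes of this cascade were among those the study itself chose from these samples, so the count is no independent evidence of their direction. F7, the protease that starts clotting with tissue factor, went from 6.91, 6.84 and 7.24 to 2.53, 2.97 and 3.14 (−1.29 ± 0.087 SE, limma adjusted p = 0.00077). The 3 fibrinogen chains fell together. FGG went from 295, 270.3 and 261 to 120.1, 142 and 127 (−1.09 ± 0.082) and FGB from 128, 103 and 111 to 48.2, 56.7 and 58.2 (−1.07 ± 0.11), both without overlap. FGA, whose promoter is shown above, went from 94.1, 92.3 and 85.0 to 58.9, 57.6 and 62.9 (−0.60), close to the fold threshold, and was at −0.57, −0.58 and −0.57 without control 1, control 2 or exposed culture 2, under that threshold. PROC, the precursor of activated protein C, went from 62.9, 60.2 and 58.6 to 28.0, 29.7 and 32.3 (−1.01 ± 0.068). The bradykinin receptors BDKRB2 and BDKRB1 fell by 1.03 and 0.98 on the log2 scale.

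The member that rose was F2RL1, a protease-activated receptor, at 0.60, which lost its call without control 2 or 3 or exposed culture 1 or 2 (0.58, 0.55, 0.56 and 0.58, under the fold threshold). F10 had a log2 fold change of −0.72 with an adjusted p of 0.0511, and was modulated (−0.94) without control 3. F2, the gene of prothrombin, and PROS1, protein S, passed the adjusted p alone at −0.44 and −0.49, and THBD, thrombomodulin, and TFPI at 0.48 and 0.31. F3, the gene of tissue factor, was at −0.013. Of 9 genes of fibrinolysis, 4 rose and none fell, with a median of 0.19. PLAUR, the urokinase receptor, went from 94.9, 97.5 and 98.7 to 150.2, 156 and 164 (0.69 ± 0.053), and SERPINE2, an inhibitor of thrombin and urokinase, from 113, 114 and 116 to 188, 189.6 and 185 (0.72 ± 0.045). PLAU and PLAT, the 2 plasminogen activators, rose by 0.60 and 0.59, near the threshold. Without control 2 or 3, PLAU was at 0.58 and 0.56, and without control 2 or 3 or exposed culture 1 or 3, PLAT was at 0.55, 0.58, 0.57 and 0.57, all under the fold threshold. PLAT also lost its call under quantile normalization. THBS1 was at −0.11 and was not modulated.

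Of 22 liver-type plasma proteins 8 fell and 4 rose, with a median of −0.40. SERPINA6, which carries cortisol in blood, went from 98.8, 96.7 and 93.9 to 30.4, 34.9 and 34.6 (log2 fold change −1.54 ± 0.068 SE, limma adjusted p = 0.000215). AMBP went from 90.2, 87.0 and 81.2 to 39.3, 44.1 and 47.8 (−0.98) and ANG, the ribonuclease angiogenin, from 375, 327 and 323 to 172, 193 and 182 (−0.90). In all 3 genes the exposed cultures were close together and well under the controls. TF, transferrin, fell by 1.28 and lost its call without control 2 (−1.16, adjusted p = 0.0736) or exposed culture 2 (−1.31, adjusted p = 0.0676). The others that fell were the haem carrier HPX (−0.76), the iron-binding lipocalin LCN2 (−0.73), FGL1 (−0.69) and the copper oxidase CP (−0.61). Those that rose were PTX3, SAA1 and SAA2 together with the thyroxine carrier TTR (0.61). PTX3, a long pentraxin, went from 1.31, 1.19 and 1.2 to 3.39, 3.45 and 3.02 (1.41 ± 0.072), SAA1 from 4.50, 3.60 and 3.81 to 8.84, 9.20 and 9.06 (1.19 ± 0.088), and SAA2 rose at least 1.59-fold. SAA1 and SAA2 are near-identical, and whether their probes tell them apart was not tested.

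Of 22 complement components and regulators 3 fell and 1 rose, with a median of −0.13. Beside CFI, C4BPA, the cofactor for the cleavage of C4b, fell from 14.3, 12.4 and 11.9 to 6.42, 6.98 and 6.89 (log2 fold change −0.93 ± 0.082 SE). CD55, the membrane-anchored inhibitor of complement convertases, went the other way, from 88.5, 82.1 and 85.8 to 149, 140.4 and 152 (0.78 ± 0.056). Controls and exposed cultures did not overlap in any of them. C3 and CFB were at −0.17 and 0.087 and were not modulated. Of 11 apolipoproteins and lipoprotein genes, APOH, a phospholipid-binding plasma protein, fell from 324, 302 and 291 to 138, 149 and 144 (−1.09 ± 0.061), and the median was −0.044. Of 24 liver-enriched transcription factors 1 fell (4.17%, against 3.34% over all genes), with a median of −0.19. It was FOXA1, from 80.8, 75.8 and 76.7 to 49.8, 51.7 and 49.4 (−0.63 ± 0.051, limma adjusted p = 0.00134). By adjusted p alone 9 of the 24 were lower, among them FOXA2 (−0.35), FOXA3 (−0.54), CEBPD (−0.45) and CEBPA (−0.22), and 2 were higher, PPARG (0.37) and CREB3L3 (0.44).

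**Figure D3:**
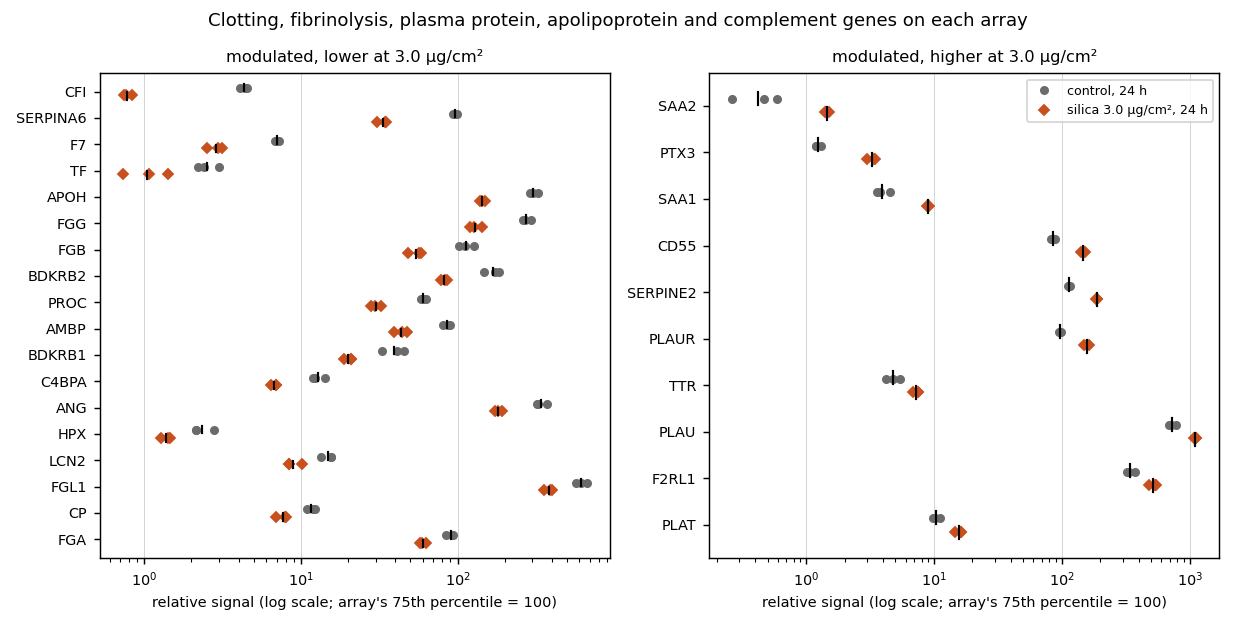
Relative signal on each array (log axis) of modulated genes of clotting, fibrinolysis, plasma proteins, apolipoproteins and complement, 18 lower and 10 higher, with controls and exposed cultures in different colours. The fibrinogen chains, CFI and SERPINA6 lie lower in all 3 exposed cultures, and PLAU, PLAUR, CD55 and the serum amyloid genes lie higher.

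Of 37 antioxidant and NRF2 target genes 1 rose and 1 fell (5.41%, against 3.34% over all genes), with a median of −0.14. SOD2, the mitochondrial superoxide dismutase, which is also known as a target of NF-kB, went from 269, 256 and 259.9 to 570.0, 567 and 590.3 (log2 fold change 1.14 ± 0.048 SE). GPX2, an epithelial glutathione peroxidase, went from 3254, 3077 and 3079 to 1747, 1864 and 2126 (−0.72 ± 0.081). GCLC and HMOX1, classical NRF2 targets, passed the adjusted p alone at −0.45 and −0.25, and NQO1 was at −0.069, not modulated. Of 52 enzymes of xenobiotic metabolism 2 fell and none rose (3.85%, against 3.34% over all genes), with a median of −0.16. They were CYP4F3, from 24.1, 21.7 and 28.3 to 13.3, 14.9 and 15 (−0.77), and FMO5 (−0.70). By adjusted p alone 22 of the 52 were lower, CYP4F3 and FMO5 among them, and 2 higher (ALDH1A3 and TIPARP), the former including also AKR1C1 (−0.49), GSTA2 (−0.51) and EPHX1 (−0.48, or −0.61 and modulated without exposed culture 3). Over all genes 7.71% were lower and 6.31% higher by adjusted p alone. Of 14 metallothioneins and zinc transporters none was modulated, but 7 were higher by adjusted p alone, MT2A at 0.39 among them, and 1, MT1F, was lower (median 0.24). The metallothioneins are near-identical copies, and how far their probes cross-hybridise was not tested.

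Of 22 heat shock proteins and co-chaperones 3 rose and none fell, with a median of 0.025. Beside HSPA6 these were the small heat shock proteins CRYAB, from 10.7, 8.05 and 8.78 to 16.9, 15.2 and 17.2 (log2 fold change 0.85 ± 0.11 SE), and HSPB8, from 17.2, 18.1 and 16.3 to 24.1, 27.5 and 28.2 (0.63). HSPA1A and HSPA1B, the main inducible HSP70 genes, were at 0.22 and 0.19 and DNAJB1 at −0.25, none of them modulated. Of 32 genes of the unfolded protein and integrated stress response 5 rose and 1 fell, with a median of 0.16. CHAC1, which degrades glutathione, went from 104, 82.9 and 82.9 to 220.3, 223 and 238 (1.34 ± 0.10), and DDIT3, which encodes CHOP, from 17.7, 18.3 and 18.6 to 41.6, 43.1 and 39.7 (1.19 ± 0.053). Both exposed groups were clearly above their controls. TRIB3, DDIT4 and PPP1R15A rose by 0.62, 0.61 and 0.61. XBP1, the transcription factor of the IRE1 arm, fell from between 1667 and 1727 in the controls to 1076 or less in the exposed cells (−0.69 ± 0.049), and the chaperone HSPA5 was at 0.14, not modulated. DDIT4 lost its call without control 2 or 3 (0.55 and 0.53, adjusted p = 0.0828 and 0.0551) or exposed culture 1, 2 or 3 (0.61, 0.60 and 0.63, adjusted p = 0.0834, 0.0798 and 0.0767). TRIB3 was at 0.58 without exposed culture 2 and PPP1R15A at 0.56 without exposed culture 3, under the fold threshold.

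Of 24 p53 target genes PLK3 alone was modulated, at 0.60 (4.17% of the list, against 3.34% over all genes, median −0.030). Its call was lost without control 2 or 3 (0.53 and 0.54, adjusted p = 0.0677 and 0.0506), without exposed culture 1, 2 or 3 (0.62, 0.59 and 0.58, adjusted p = 0.0638, 0.0687 and 0.0748) and with the slide as a block (adjusted p = 0.0554). CDKN1A and MDM2 were at 0.39 and 0.19 without passing the test. Of 26 AP-1, EGR and other immediate-early factors 4 rose and 3 fell, with a median of 0.024. The AP-1 members and partners FOSL1 (0.65), MAFF (0.82) and ATF3 (0.78) and the orphan receptor NR4A3 (0.67) rose, and EGR2 (−1.31), EGR1 (−0.76) and FOS (−0.67) fell. EGR1 went from 848, 743 and 872 to 471, 500.0 and 479 and ATF3 from 95.8, 102 and 127 to 179, 172 and 203, without overlap in either. NR4A3 lost its call without control 2 or 3 (0.63 with adjusted p = 0.0549, and 0.58 under the fold threshold) or exposed culture 1 or 2 (0.67 and 0.65, adjusted p = 0.0554 and 0.0527). Of 19 phosphatases and other feedback genes of MAP kinases DUSP5, a nuclear ERK phosphatase, rose from 125, 115 and 122 to 206, 213 and 206 (0.79 ± 0.052) and ERBB3, a receptor of neuregulins, fell from 13.3, 12.8 and 12.9 to 5.93, 6.14 and 7.65 (−1.0 ± 0.10), with a median of 0.15.

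Of 18 mucins and brush-border genes 5 fell and 2 rose (38.9% modulated, median −0.15). Beside VIL1 the genes that fell were MYO1A, the brush border motor myosin 1a, from 9.77, 9.13 and 8.66 to 4.14, 3.90 and 3.88 (log2 fold change −1.21 ± 0.063 SE), TFF3, a secreted trefoil peptide, from 19.5, 18.4 and 17.0 to 7.74, 8.51 and 7.74 (−1.19 ± 0.072), USH1C, which encodes harmonin (−1.05), and the scaffold PDZK1 (−1.02). In none of them did an exposed culture reach a control. ANPEP, a brush border aminopeptidase, went from 15.2, 16.0 and 15.7 to 31.3, 31.3 and 31.3 (1.00 ± 0.046), the opposite direction, and TFF2 rose by 0.63, or by 0.58, under the threshold, without control 3. Of 37 genes of epithelial junctions and keratins 5 fell and 2 rose, with a median of −0.11. CDH1, E-cadherin, went from 171, 185 and 183 to 101, 109 and 107 (−0.76 ± 0.057), and EPCAM, CLDN2 and CGN, a tight junction protein, fell by 0.60, 0.59 and 0.59 beside KRT4. These 3 were near the fold threshold and lost their calls without control 2 or exposed culture 3 for EPCAM (−0.51 and −0.55), without control 1 or exposed culture 1 or 2 for CLDN2 (−0.53, −0.58 and −0.52), without control 2 or 3 or exposed culture 1 for CGN (−0.58, −0.58 and −0.57), and under quantile normalization. KRT15 (0.83) and ZEB2, a repressor of E-cadherin (0.97), rose, whereas ZEB1, SNAI1 and SNAI2 were not modulated. CDH1 and EPCAM were also the 2 of 9 epithelial markers that fell. The summed level of the epithelial list was 54020 to 57840 in the controls and 54190 to 58400 in the exposed cells. KRT18 (24740 to 27850 in the controls) and KRT7 (20570 to 21690) made up most of that sum, so it does not reflect the dimmer members.

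Of 44 matrix proteins, integrins and matrix enzymes 6 rose and 3 fell, with a median of 0.030. Beside MMP1, MMP10, a stromelysin, went from 1.91, 1.49 and 1.74 to 3.15, 3.48 and 3.59 (log2 fold change 1.00 ± 0.10 SE). The crosslinking enzyme TGM2 went from 138, 154 and 142 to 269, 304 and 307 (1.01 ± 0.074). No exposed culture overlapped a control. ITGA3, an integrin chain that binds laminins, rose by 0.80, and COL13A1, a membrane collagen, at least 2.81-fold. COL1A1 fell from 18.5, 21.2 and 26.3 to 8.44, 8.93 and 9.68 (−1.27 ± 0.13), the collagen-binding integrin ITGA1 by 0.67, or by 0.55, under the fold threshold, without exposed culture 3, and COL4A4 by 0.66. MMP2 had a log2 fold change of −1.18 without passing the test. The 2 fibroblast markers tested, LUM and THY1, were at −0.37 and −0.33, and the summed level of the list was 33.2 to 38.9 in the controls and 27.0 to 31.8 in the exposed cells. The part of such a signal in the fall of COL1A1 was not tested. Of 14 genes of prostaglandin synthesis 2 rose, PTGES, the inducible prostaglandin E synthase, from 23.7, 22.1 and 19.5 to 50.4, 53.9 and 50.2 (1.25 ± 0.082), and PTGS1, at least 1.39-fold from under background, while PTGS2 passed the adjusted p alone at 0.54 (median −0.067). Of 23 ID, BMP and TGF-beta feedback genes GREM1, a BMP antagonist, rose from 29.9, 26.2 and 27.2 to 58.9, 52.9 and 58.7 (1.03 ± 0.073), and the median was 0.017. GREM1 alone made 4.35% of that list modulated, against 3.34% over all genes.

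Of the lysosomal genes tested 12.5% were modulated and of the sterol genes 5.88%, against 3.34% over all genes. Of 32 genes of lysosome and autophagy 4 rose and none fell, and 12 were higher and 1 (GLA) lower by adjusted p alone (median 0.13). NPC1, which exports cholesterol from lysosomes, went from 72.0, 72.5 and 72.5 to 143, 124 and 138 (log2 fold change 0.90 ± 0.064 SE), the protease CTSL from 2285, 2062 and 1988 to 3638, 3801 and 3648 (0.81 ± 0.066), and ACP5, an acid phosphatase, from 3.59, 3.69 and 3.01 to 6.13, 7.91 and 7.15 (1.04 ± 0.12). Exposed cultures were above the controls throughout, and the autophagy protein gene WIPI1 rose by 0.63. CD68, a lysosomal membrane protein used as a macrophage marker, went from 28.5, 30 and 27.4 to 68.2, 68.8 and 72.6 (1.29 ± 0.057). It was 1 of 5 leukocyte markers tested and the only one modulated, and another 5 of the 10 probed stayed at background throughout. The list's summed level was 87.8 to 90.8 in the controls and 118 to 123 in the exposed cells, a rise that came from CD68, since the median log2 fold change of the 5 was −0.20 with 2 of 5 positive, and CD14 passed the adjusted p alone at a lower level (−0.56). Of 34 genes of cholesterol and fatty acid synthesis ACSS2, which makes acetyl-CoA from acetate, rose from 136, 144 and 143 to 221, 225 and 225 (0.67 ± 0.048) and MVD of the mevalonate pathway by 0.62, or by 0.57, under the fold threshold, without control 1. In that list 29 of 34 had a positive log2 fold change (median 0.16). By adjusted p alone 10 were higher and none lower, where 6.31% of all genes were higher and 7.71% lower.

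Of 28 genes of clathrin and caveolar uptake none was modulated, and by adjusted p alone 1 was higher (CLTCL1, 0.32) and 2 were lower (BIN1 and AP2A2), with a median of −0.055. Of 48 cell cycle and DNA replication genes none was modulated either, while 15 were lower and none higher by adjusted p alone (median −0.15), for example CDK1 (−0.29), CCNB1 (−0.27) and CDKN2C (−0.55). Of all genes 7.71% were lower by adjusted p alone. Of 31 interferon-stimulated genes OASL rose from 2.83, 2.21 and 2.83 to 6.94, 9.24 and 9.15 (log2 fold change 1.68 ± 0.15 SE) and IFITM1 fell by 0.71, with a median of 0.094. By adjusted p alone 9 were higher and 2 lower, and the higher ones included ISG15 (0.52) and IFIT2 (0.57), antiviral proteins induced by interferon. Of 28 genes of hypoxia and glycolysis 2 fell, CA9, a carbonic anhydrase, from 3.43, 2.71 and 3.49 to 1.62, 1.77 and 1.68 (−0.92 ± 0.11), and the oxygen sensor EGLN3 (−0.70), whereas SLC2A1 and VEGFA passed the adjusted p alone at −0.22 and 0.23 (median 0.076).

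**Figure D4:**
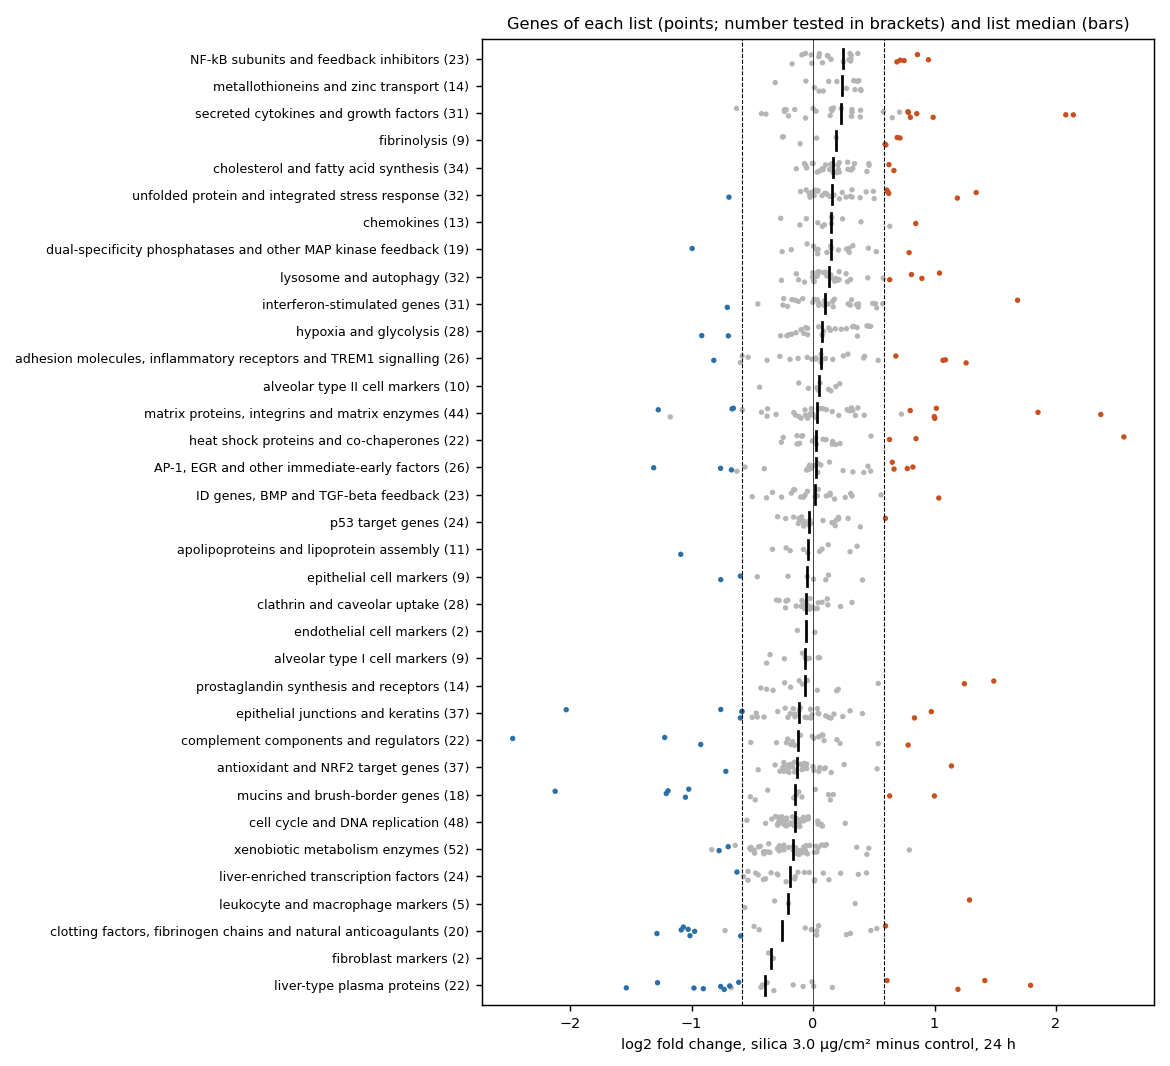
Log2 fold change at 3.0 µg/cm2 against controls (x axis) of every gene tested in each list (rows, sorted by median), with the median as a bar and modulated genes coloured by direction. The plasma protein list has the lowest median among the lists of the response (−0.40) and the NF-kB list one of the highest (0.25).

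The dim members of these lists depended on the background. Of the 108 list genes modulated, the same count was 62 with normexp and 66 with the series matrix values. The clotting list had 5 lower and none higher with normexp (6 lower with the series matrix values), the plasma protein list 4 lower and 1 higher under both, the cytokine list 4 higher and the NF-kB list 2 higher under both. Complement regulators came to 1 lower and 1 higher with normexp. F7, at −0.51 with normexp, ICAM1 at 0.48, PTX3 at 0.47, CCL20 at 0.50, FOXA1 at −0.57 and C4BPA at −0.56 were under the fold threshold there, whereas FGG, FGB, PROC, SERPINA6, IL11, RELB, SOD2 and CHAC1 stayed modulated.

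The 6.0 µg/cm2 arrays shared the slides, and 363 of 22138 transcripts (1.64%) differed between the doses in a direct comparison that used no control array, 154 higher and 209 lower at 6.0 µg/cm2 (42.4% higher, and 53.2% of 329 with quantile normalization, 85% of 20 with normexp background correction and 58.7% of 92 with the series matrix values). Since the 3.0 µg/cm2 arrays both chose the modulated transcripts and enter this comparison, the counts among them are a description. Of the 330 that rose at 3.0 µg/cm2, 92 were higher still at 6.0 µg/cm2 and none was lower. Of the 265 tested among those that fell, 81 were lower still and 1 was higher, a probe without a gene name that was picked out after its values were seen. The median log2 fold change against controls was 1.19 and −1.20 at 6.0 µg/cm2 for the transcripts with medians of 0.80 and −0.78 at 3.0 µg/cm2. Among named transcripts IL24 was higher at the higher dose by 2.47 ± 0.13 (SE, log2), HSPA6 by 2.08 ± 0.13, MMP1 by 1.76 ± 0.069, IL6 by 1.65 ± 0.071, PLIN2, which coats lipid droplets, by 1.50 ± 0.083, and C11orf96 by 1.46 ± 0.11. The difference between the doses was −1.84 ± 0.25 for DCDC1, −1.51 ± 0.12 for the protease gene HABP2, −1.36 ± 0.23 for VIL1, −1.33 ± 0.16 for LGALS2, −1.24 ± 0.15 for the receptor gene NPY2R and −1.23 ± 0.19 for endothelin 3 (EDN3). These 12 were chosen among the transcripts modulated at 3.0 µg/cm2, so their calls at that dose are no further result. NPY2R was at −0.92 there. Its call was lost without control 1 or 2 (−0.83 and −0.84, adjusted p = 0.0858 and 0.102), without exposed culture 1, 2 or 3 (−1.04, −0.74 and −0.97, adjusted p = 0.0559, 0.0695 and 0.0842) and with the slide as a block (adjusted p = 0.0656). The count of 363 was 231 without exposed culture 2 at 3.0 µg/cm2.

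At 72 h the response to 3.0 µg/cm2, each time against its own controls, differed from that at 24 h for 1205 of 22604 transcripts (5.33%), 39.8% of them towards higher values at 72 h (18.6% of 1003 with the series matrix values and 52% of 4653 without a fold threshold). The 72 h exposed arrays stood on other slides than their controls, which shared the slides of the 24 h arrays. Slide and exposure at 72 h therefore cannot be told apart. The text describing the 72 h exposed arrays in the labels gives 24 h where their source name gives 72 h. Exposed replicate 1 at 72 h had 73.3% of probes well above background against 64.1% to 67.3% on the other arrays, and the count was 827 to 1361 with 1 array left out in turn. Of the 330 transcripts that rose at 24 h, 1 (PTX3) had a larger response at 72 h and 124 a smaller one, and of the 306 that fell, 20 were further down and 24 less so or up. These counts use the 24 h arrays that chose the transcripts. The median log2 fold change at 72 h was 0.38 for the former and −0.83 for the latter, so that the median of the fallers was close to the −0.78 at 24 h while that of the risers was lower than 0.80.

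IGFBP1, a binding protein of insulin-like growth factors, had a log2 fold change of 1.69 at 24 h, from 350.3, 286 and 296 to 1020.0, 964 and 1016, and of −0.53 at 72 h. PTPRH, a receptor-type tyrosine phosphatase, stood at 1.84 and −0.35, and C11orf96 at 4.97 and 2.53. SOD2 was at 1.14 and 0.49, and PLAUR at 0.69 and −0.042. The fibrinogen chain FGA was at −0.60 at 24 h and −1.63 at 72 h, a difference of −1.04 ± 0.095 (SE, limma adjusted p = 0.000381). PTX3 went from 1.41 to 2.62. CNN1, a calponin of smooth muscle, and the calcium-binding CABP7 were at −1.40 and −0.95 at 24 h and at 0.038 and 0.49 at 72 h. Of the transcripts singled out for their difference between times, GPR179 (1.24 at 24 h) lost its 24 h call without exposed culture 1 or 3 (1.13 and 1.25, adjusted p = 0.0627 and 0.0582) and with the slide as a block (adjusted p = 0.0564), and UBD (−1.07) without control 2 (−1.08, adjusted p = 0.0522). MROH7 (−0.86) lost it without control 1, 2 or 3 or exposed culture 2 (−0.82, −0.90, −0.85 and −0.91, adjusted p = 0.0781, 0.0736, 0.0638 and 0.0712) and with the block (adjusted p = 0.0617), and YJEFN3 (−0.80) without control 1 or 2 or exposed culture 1, 2 or 3 (−0.66, −0.76, −0.90, −0.83 and −0.68, adjusted p from 0.0719 to 0.115).

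**Figure D5:**
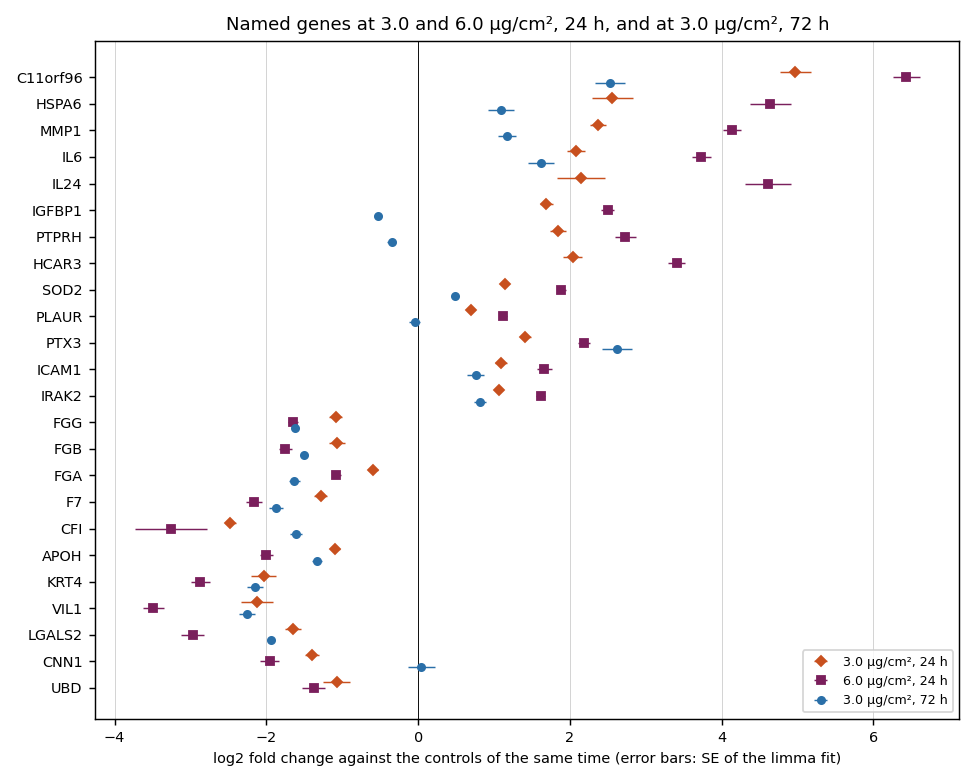
Log2 fold change against the matching controls (x axis, ± SE) for 24 named genes (rows) at 3.0 µg/cm2 for 24 h, 6.0 µg/cm2 for 24 h and 3.0 µg/cm2 for 72 h, where a gene not tested at a condition has no point. MMP1 and IL6 lie further right at the higher dose (4.13 and 3.73), and IGFBP1 and PTPRH lie at 1.69 and 1.84 after 24 h but below 0 after 72 h.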

How the data were processed

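Cy3-labelled RNA of A549 cells was hybridised to Agilent arrays, 1 culture per array. The authors deposited each array's scanner output from Agilent Feature Extraction 11.0.1.1 (per the submitters' processing notes and file headers), in which the processed signal is an intensity already corrected for background and not normalized between arrays. The deposited series matrix equals the median spot intensity. From 43118 non-control spots, those flagged as non-uniform or outlier were left out, spots of a probe were averaged (34127 probes), and each array's 75th percentile of log2 signal was subtracted. A probe was tested where at least 50% of its spots were well above background on every array of 1 group. Groups were compared with limma 3.58.1 in R 4.3.3 with Benjamini-Hochberg adjustment (adjusted p under 0.05, fold 1.5), without the slide as a block. The scripts were tested on simulated data. The number of arrays limits the precision.

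A probe took its gene symbol through its accession (25771 probes) or the study's gene list (555), and 7801 were unnamed. Lists were counted on the probe of each gene with the highest mean. Named were the 12 largest rises and falls, up to 8 modulated and 4 other members per list, genes the study singles out, and the 6 largest differences each way by dose and time. Those differences were taken only among transcripts modulated at 3.0 µg/cm2, 24 h. Further list members, such as LCN2, FGL1, CP, TTR, COL4A4 and NQO1, were named after their values were seen. Members and lists were chosen with earlier results of these data known. Replicate numbers mark a shared slide in the labels, except for the 72 h exposed arrays, so they pair control and exposed arrays at 24 h. The deviations of the pairs from their group means correlated by 0.161, 0.0714 and 0.0066. Alternatives were the methods' t-test, normexp (run on median intensities, since the planned means were not used here), quantile normalization, series matrix values, other filters and fold thresholds, flagged spots kept, 3 groups in 1 fit, the slide as a block and each array left out. Promoter windows came from RefSeq (GRCh38.p14). Other doses were not analysed here. Some list members are counted but not reported by name here.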

Additional observations from a re-analysis of the deposited data

Results flagged for a closer look

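For 1205 transcripts the response to 3.0 µg/cm2 differed between 72 h and 24 h by the limma interaction test, each time against its own controls. The difference is given as the log2 response at 72 h minus that at 24 h. It was positive for UBD (1.84), CABP7 (1.44), CNN1 (1.44), YJEFN3 (1.29), PTX3 (1.21) and MROH7 (1.16), and for the chemokine CXCL8 (0.97). It was negative for HCAR3 (−2.72), GPR179 (−2.60), C11orf96 (−2.44), IGFBP1 (−2.22), PTPRH (−2.19) and CD22 (−2.15), and, among genes the study singles out, for SOD2 (−0.65), EPHX1 (−0.65), TFPI (−0.81), PLAUR (−0.73) and FGA (−1.04). Apart from genes the study singles out, those named were chosen among transcripts modulated at 24 h. HCAR3 and CD22 passed the detection filter only through the 24 h exposed cultures, so their differences lie among dim signals. The 72 h exposed arrays were on other slides than all arrays they are compared with, so slide and exposure at 72 h cannot be told apart.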

How the results depend on the processing

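None of the 133 named modulated genes changed sign in any of the settings run, but the majority direction of the counts did. The modulated transcripts, 330 higher and 306 lower, were 249 and 302 without the filter on dim probes, 1257 and 1437 without a fold threshold, and 266 and 282, 275 and 309, and 281 and 292 without control 2 and exposed cultures 2 and 3. Those between the doses, 154 higher and 209 lower, were 175 and 154 with quantile normalization, 17 and 3 with normexp, 54 and 38 with the series matrix values, 31 and 20 with a fold threshold of 2, 88 and 87 without the filter, 89 and 83 with the adjusted t-test, and 117 and 114 without exposed culture 2 at 3.0 µg/cm2. Those between the times, 479 and 726, were 2419 and 2234 without a fold threshold. The 636 modulated transcripts came to 180 with a fold threshold of 2, 2694 without one, 227 with normexp and 233 with the series matrix values, and the 108 list genes to 40, 291, 62 and 66 in that order. The 363 transcripts between the doses came to 51, 2000, 20 and 92 in that order, to 175 without the filter on dim probes and to 172 with the methods' t-test after Benjamini-Hochberg adjustment. The 1205 transcripts between the times came to 239, 4653 and 555 with the first 3 of these settings, and to 1003 with the series matrix values, under which the median over all transcripts was −0.107 instead of 0.03. Leaving out 1 array in turn gave 534 to 691, 99 to 113, 231 to 406 and 827 to 1361 for these 4 counts, and 231 was without exposed culture 2 at 3.0 µg/cm2. With the slide as a block, which pairs the 24 h arrays, the first 3 of them were 589, 109 and 356. The comparison of times was blocked by replicate number, which does not mark a shared slide for the 72 h exposed arrays, and came to 1135. Among the 133 named modulated genes the slide block ended 5 calls (BMP2, GPR179, MROH7, NPY2R and PLK3). Without single arrays 106 of the 133 kept their call each time. Quantile normalization ended 4 calls (CGN, CLDN2, EPCAM and PLAT), 3 groups in 1 fit 3 (ANKS4B, GPR179 and TF), no filter 21, the adjusted t-test 27, the series matrix values 56 and normexp 61, most of them dim probes. The cause was not tested. The methods' t-test called 677 transcripts without adjustment.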
